A study of Homo sapiens with 6 samples.

Results

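The cystine transporter gene SLC7A11 and 9 antioxidant genes regulated by the transcription factor NRF2 were followed in DDX17_KO and control MHCC97H cells, a human hepatocellular carcinoma line. The 10 genes are SLC7A11, GCLC, GCLM, NQO1, HMOX1, TXNRD1, SRXN1, TXN, FTL and FTH1. They were chosen by symbol, and each symbol matched 1 of the 58302 rows of the gene table. DDX17_KO cells are a line made with CRISPR/Cas9 against the RNA helicase gene DDX17, and control cells are a line given a non-target construct by the same system. Both lines share the MHCC97H background and were grown in DMEM with 10% fetal bovine serum. Whether the knockout line is 1 clone is not given in the sources used here. Total RNA of each line was sequenced in 3 libraries, and the sources do not tell whether these came from separate cultures, so every p-value measures the spread between these libraries, which may be technical.

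DDX17 itself had 22.4, 7.64 and 19.1 FPKM (fragments scaled to transcript length and to the depth of the library, a unit read from the values because the table's header names none) in DDX17_KO replicates 1, 2 and 3, against 45.7, 41.4 and 43.9 FPKM in control replicates 1, 2 and 3. The groups did not overlap, with an exact permutation p = 0.1, the smallest that 3 against 3 libraries allow. Depth estimated from the values ran from 5350000 to 10620000 fragments in DDX17_KO and from 12330000 to 14560000 in control. At this depth 3 fragments on a transcript of 1 kb make between 0.206 and 0.561 FPKM, and the lowest value of any of the 10 genes was 1.01 FPKM. The libraries numbered 2 differed from the rest of their groups in the same direction, with GC-rich transcripts high in both. Spearman's rho between a gene's deviation and its GC content, across genes, was 0.53 in DDX17_KO replicate 2 and 0.59 in control replicate 2, and between -0.54 and -0.32 in the other libraries. Of the hepatocyte markers only CPS1 was above 0.4 FPKM in any library. Of the hepatoma and epithelial markers, the keratin genes KRT8 and KRT18 were at 93.9 FPKM or more in all 6. The rest of that list, AFP, GPC3, KRT19, EPCAM and CDH1, was at 0.337 FPKM or less in every library.

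NRF2, the product of NFE2L2, is held in the cytoplasm and passed to the proteasome by KEAP1 while cells are unstressed. Oxidants and electrophiles modify KEAP1, NRF2 then accumulates in the nucleus, and with a small MAF protein it binds antioxidant response elements, which BACH1 otherwise occupies as a repressor. The genes it switches on import cystine and build glutathione, run the thioredoxin cycle, reduce quinones, and break down haem and store its iron. In liver cancer this program is known for its activation by mutation of NFE2L2 or KEAP1, and SLC7A11 is known as a brake on ferroptosis, a death by lipid peroxidation.

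The letters of an antioxidant response element were looked for in the promoters, because binding to such elements is what makes these genes a family. RefSeq promoter windows of GRCh38.p14 covered 7 of the 10 genes, all but SLC7A11, HMOX1 and FTH1. In the 250 bases before the start, the core TGACNNNGC was found on either strand in 2 of these 7 genes, GCLM and TXNRD1. It was found in 10.9% of all 35116 windows of that length. That share counts windows and not genes, and TXNRD1 has 2 windows, both with a match. The 3 matches are shown with their surroundings, read 5′ to 3′ along the gene's strand, with the matching letters in capitals.
GCLM: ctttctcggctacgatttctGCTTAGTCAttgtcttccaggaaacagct
TXNRD1, first start: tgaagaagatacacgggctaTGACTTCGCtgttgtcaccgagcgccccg
TXNRD1, second start: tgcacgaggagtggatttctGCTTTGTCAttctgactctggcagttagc
The GCLM stretch is chr1:93909436-93909484 on the minus strand, with its match starting 34 bases before the start. The TXNRD1 stretches are chr12:104215660-104215708 and chr12:104286910-104286958 on the plus strand, with matches starting 99 and 102 bases before their starts. In GCLM and at the second TXNRD1 start the core lies on the opposite strand, where it reads TGACTAAGC and TGACAAAGC. A match is letters in a window and no evidence of binding in these cells. Only the 250 bases before the start were searched, so the lack of a match does not show that a gene lacks an element.

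None of the 10 genes passed the threshold between DDX17_KO and control, and SLC7A11 was the one with a large difference. By limma on log2(FPKM + 1), with an adjusted p under 0.05 as the threshold, 0 of the 10 were called, against 0.0384% of the 15620 genes tested. All 10 genes passed the filter, a mean of 0.5 FPKM or more. At an unadjusted p under 0.05 the count was 1 of 10, which was SLC7A11, against 13.5% of all genes tested. The groups overlapped in all 10 genes, while 20.7% of the genes tested did not overlap. The fold change, as DDX17_KO over control on the log2 scale, was above 0 in 2 genes and below 0 in 8. Its median was -0.13, beside -0.03 over all genes tested and -0.09 over those that averaged 2 FPKM or more. Without DDX17_KO replicate 2, SLC7A11 was called, 1 of 10 against 3.66% of all genes, and the median of the 10 was -0.27. On all 6 libraries the targeted gene DDX17 was not called either, although it changed by -1.48 on the log2 scale. DDX17 was called in 3 of the 19 other settings, the same 3 that called SLC7A11. The lack of calls among the 10 genes therefore does not show that they were unchanged.

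**Figure D1:**
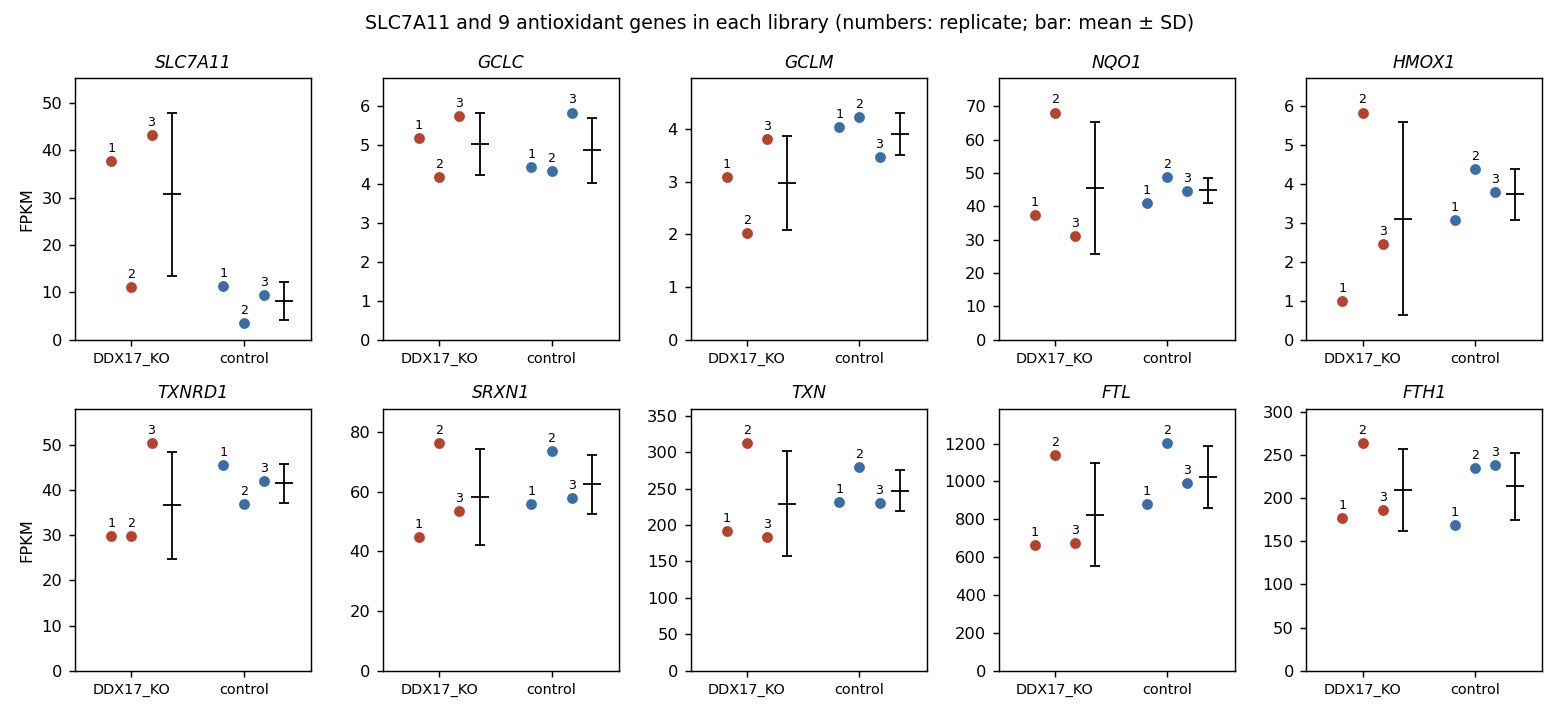
FPKM of each of the 10 genes in the 3 DDX17_KO libraries (red) and the 3 control libraries (blue), numbered by replicate, with the group mean and SD beside the points; each panel has its own axis from 0. SLC7A11 is above 37 FPKM in DDX17_KO replicates 1 and 3 and at 11.1 FPKM in replicate 2, against 11.4 FPKM or less in the control libraries.

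SLC7A11 (ENSG00000151012, chr4:138164097-138242349, minus strand, hg38) encodes the light chain of the antiporter that brings cystine into the cell in exchange for glutamate. It had 37.8, 11.1 and 43.3 FPKM in replicates 1, 2 and 3 of DDX17_KO, against 11.4, 3.60 and 9.39 FPKM in control replicates 1, 2 and 3. DDX17_KO replicates 1 and 3 were above every control library, and DDX17_KO replicate 2 lay just under control replicate 1, so the groups overlapped by that pair alone. The means were 30.7 ± 17.2 FPKM in DDX17_KO and 8.14 ± 4.06 FPKM in control (SD, n = 3 each), a ratio of 3.77. On the log2 scale the fold change was 1.71, with 0.56 as its standard error and a 95% interval from 0.41 to 3.01, and the limma adjusted p was 0.352. A two-sided exact permutation test over the 6 libraries gave p = 0.2, where 0.1 is the smallest possible.

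Within libraries of the same number, the ratio of DDX17_KO to control for SLC7A11 was 3.31, 3.08 and 4.61 for numbers 1, 2 and 3. It was thus higher in every pair, although both libraries numbered 2 were the lowest of their groups. DDX17_KO was above control in all 3 pairs in 26.2% of the genes tested, so the direction alone is common, and SLC7A11 was the 1 gene of the 10 to show it. Blocked by replicate number, the fold change of 1.71 had a 95% interval from 1.28 to 2.14 and a limma adjusted p of 0.0654, still above the threshold. The labels state no pairing by number, and a check on the data could not settle it for numbers 1 and 3. Without DDX17_KO replicate 2 the fold change was 2.30 with a limma adjusted p of 0.0449, and without both libraries numbered 2 it was 1.87 with 0.0349. With GC content and transcript length corrected for, it was 1.39 with a limma adjusted p of 0.229. The range of the adjusted p over all 19 other settings was 0.0126 to 0.79. The antisense gene SLC7A11-AS1, which overlaps the locus, was listed at 0 in all 6 libraries.

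**Figure D2:**
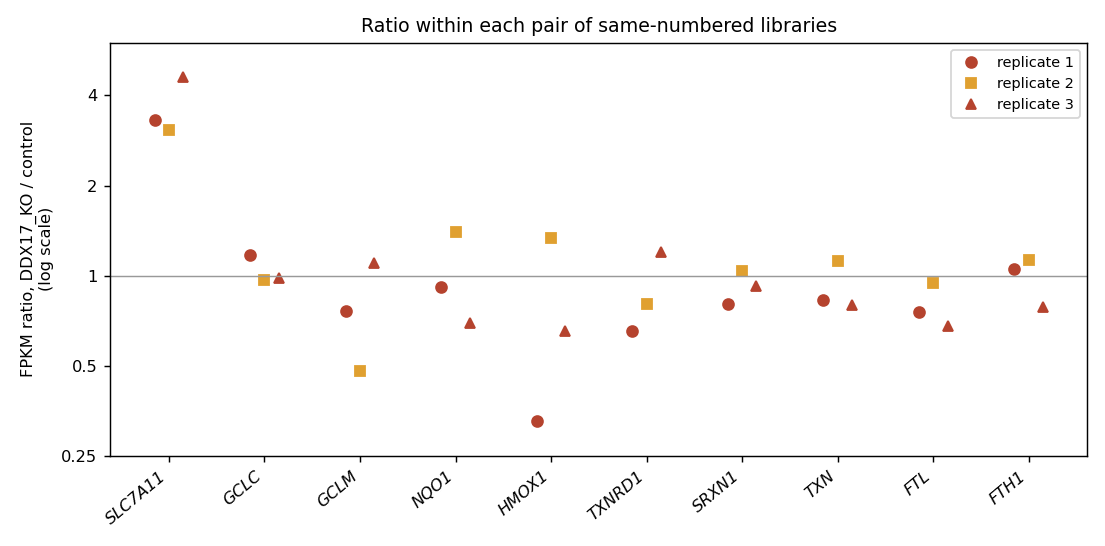
Ratio of FPKM in DDX17_KO to FPKM in the control library of the same replicate number, on a log scale, for each of the 10 genes; circles, squares and triangles are replicates 1, 2 and 3, and the line marks a ratio of 1. The 3 ratios of SLC7A11 lie between 3.08 and 4.61, FTL has all 3 below 1, and the other 8 genes have ratios on both sides of 1.

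SLC3A2, the heavy chain that carries SLC7A11 to the cell surface, did not share its pattern. SLC3A2 had 19.7, 38.6 and 23.1 FPKM in replicates 1, 2 and 3 of DDX17_KO, against 25.8, 30.4 and 24.9 FPKM in control replicates 1, 2 and 3. The groups overlapped, with the library numbered 2 highest in each, and the fold change was -0.05 with a 95% interval from -0.67 to 0.58 (limma adjusted p 0.934). Its sign turned with GC content and length corrected for, to 0.15.

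The 2 subunits of glutamate-cysteine ligase, the first and rate-limiting step of glutathione synthesis, were low in both lines. GCLC (ENSG00000001084, chr6:53497341-53616970), the catalytic subunit, had 5.20, 4.18 and 5.75 FPKM in replicates 1, 2 and 3 of DDX17_KO, against 4.43, 4.33 and 5.84 FPKM in control replicates 1, 2 and 3. The libraries of the groups interleaved, and the fold change was 0.04 with a 95% interval from -0.41 to 0.49, so a change of 1 log2 unit in either direction lies outside it (limma adjusted p 0.917). GCLM (ENSG00000023909, chr1:93885205-93909456), the modifier subunit that raises the activity of GCLC, had 3.08, 2.03 and 3.81 FPKM in DDX17_KO and 4.04, 4.23 and 3.46 FPKM in control, in the same order of replicates. Only DDX17_KO replicate 3 reached into the control range. The means were 2.97 ± 0.89 FPKM in DDX17_KO and 3.91 ± 0.40 FPKM in control (SD, n = 3 each), with a fold change of -0.33, a 95% interval from -0.82 to 0.17 and a limma adjusted p of 0.46. The fold change of GCLM was -0.57 after the correction for GC content and length (limma adjusted p 0.241), -0.15 without DDX17_KO replicate 2 and -0.10 without both libraries numbered 2 or with weighted libraries.

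The thioredoxin genes were abundant and overlapped between the groups. TXN (ENSG00000136810, chr9:110243811-110256640) encodes thioredoxin, the small protein that reduces disulfides. It had 191, 312 and 183 FPKM in replicates 1, 2 and 3 of DDX17_KO, against 231, 279 and 231 FPKM in control replicates 1, 2 and 3. DDX17_KO replicates 1 and 3 were below every control library and DDX17_KO replicate 2 above every one, so that the mean hides a split within the knockout group. The fold change was -0.15 with a 95% interval from -0.73 to 0.44 (limma adjusted p 0.773). It was -0.43 with GC content and length corrected for, -0.39 when DDX17_KO replicate 2 was left out and -0.0096 when DDX17_KO replicate 3 was.

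TXNRD1 (ENSG00000198431, chr12:104215779-104350305), the reductase that recharges thioredoxin with NADPH, had 29.8, 29.8 and 50.4 FPKM in replicates 1, 2 and 3 of DDX17_KO, against 45.5, 37.0 and 42.0 FPKM in control replicates 1, 2 and 3. DDX17_KO replicates 1 and 2 were below every control library and DDX17_KO replicate 3 above every one. The fold change was -0.21 with a 95% interval from -0.79 to 0.37 (limma adjusted p 0.66), with -0.09 after leaving out DDX17_KO replicate 2 and -0.46 after leaving out DDX17_KO replicate 3. SRXN1 (ENSG00000271303, chr20:646615-653370) encodes sulfiredoxin, which repairs over-oxidised peroxiredoxins. It had 44.8, 76.2 and 53.6 FPKM in replicates 1, 2 and 3 of DDX17_KO, against 55.7, 73.6 and 57.9 FPKM in control replicates 1, 2 and 3. Again DDX17_KO replicate 2 was the highest of all 6 libraries and the other 2 knockout libraries were the lowest, and the fold change was -0.12 with a 95% interval from -0.70 to 0.45 (limma adjusted p 0.808).

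The same split was seen in NQO1 (ENSG00000181019, chr16:69706996-69726951), which encodes the quinone reductase most often used as a readout of NRF2. NQO1 had 37.5, 68.1 and 31.1 FPKM in replicates 1, 2 and 3 of DDX17_KO, against 41.1, 48.7 and 44.7 FPKM in control replicates 1, 2 and 3. DDX17_KO replicate 2 was above, and DDX17_KO replicates 1 and 3 below, every control library. The group means differed by less than the spread, at 45.6 ± 19.8 FPKM in DDX17_KO and 44.8 ± 3.78 FPKM in control (SD, n = 3 each), and the fold change was -0.05 with a 95% interval from -0.74 to 0.63 (limma adjusted p 0.933). The sign of the NQO1 fold change turned under both other scalings, to 0.02 with median-of-ratios factors and 0.03 with quantile normalization.

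HMOX1 (ENSG00000100292, chr22:35380361-35394214) encodes haem oxygenase 1, which opens haem and frees its iron. It had 1.01, 5.84 and 2.47 FPKM in replicates 1, 2 and 3 of DDX17_KO, against 3.06, 4.37 and 3.78 FPKM in control replicates 1, 2 and 3. Here too DDX17_KO replicate 2 was the highest library of all and DDX17_KO replicates 1 and 3 were the lowest. The fold change was -0.38 with a 95% interval from -1.33 to 0.57 (limma adjusted p 0.635). It was -0.84 without DDX17_KO replicate 2 (limma adjusted p 0.0865) and 0.05 without DDX17_KO replicate 1. With GC content and length corrected for it was -0.10, and with a pseudocount of 0.01 it was -0.60. With libraries weighted by their fit, HMOX1 was called lower, at -0.82 with a limma adjusted p of 0.0451, in a setting that called 24.7% of all genes.

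Ferritin was the most abundant product of the set. FTL (ENSG00000087086, chr19:48965301-48966878), the light chain of the iron storage shell, had 664, 1137 and 672 FPKM in replicates 1, 2 and 3 of DDX17_KO, against 880, 1201 and 989 FPKM in control replicates 1, 2 and 3. Replicates 1 and 3 of DDX17_KO were below every control library, and replicate 2 lay inside the control range. The means were 824 ± 271 FPKM in DDX17_KO and 1024 ± 163 FPKM in control (SD, n = 3 each). Within same-numbered libraries the ratio of DDX17_KO to control was 0.754, 0.947 and 0.679, all below 1, as in 27.5% of the genes tested. The fold change was -0.35 with a 95% interval from -0.96 to 0.27 (limma adjusted p 0.515), -0.60 without DDX17_KO replicate 2 (limma adjusted p 0.0717), and a call with weighted libraries at -0.51 (limma adjusted p 0.0357). With GC content and length corrected for it was -0.11 (limma adjusted p 0.771).

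Markers of red cells, which make ferritin and haem enzymes too, moved with the groups. The 8 markers summed to 0.0211, 0.673 and 0.0844 FPKM in replicates 1, 2 and 3 of DDX17_KO, against 69.6, 54.0 and 62.1 FPKM in control replicates 1, 2 and 3. That sum was made of the globin genes HBB, HBA1 and HBA2; the other 5 markers were each at 0.206 FPKM or less, and CA1 was at 0 in all 6 libraries. The part of these transcripts in the values of FTL, FTH1 and HMOX1 was not tested, and in bulk RNA fewer cells of a type and less RNA per cell cannot be told apart. The 6 leukocyte markers summed to at most 0.316 FPKM in any library. The 6 fibroblast and endothelial markers, nearly all COL3A1 and COL1A1, summed to 87.0, 38.8 and 39.9 FPKM in DDX17_KO and 33.2, 41.4 and 33.3 FPKM in control.

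FTH1 (ENSG00000167996, chr11:61959718-61967660), the heavy chain that oxidises iron on entry, had 177, 264 and 187 FPKM in replicates 1, 2 and 3 of DDX17_KO, against 169, 234 and 238 FPKM in control replicates 1, 2 and 3. The groups interleaved, and the fold change was -0.04 with a 95% interval from -0.60 to 0.52 (limma adjusted p 0.945). Its sign turned under median-of-ratios scaling, to 0.04, and quantile normalization, to 0.11. FTH1 has many processed pseudogenes of near-identical sequence, so the level of the FTH1 row is uncertain: 25 pseudogene rows together held from 66.8% to 71.2% of the summed FTH1 family FPKM in DDX17_KO and from 55.6% to 61.5% in control. For FTL the corresponding share of its 16 pseudogene rows was at most 10.0%.

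**Figure D3:**
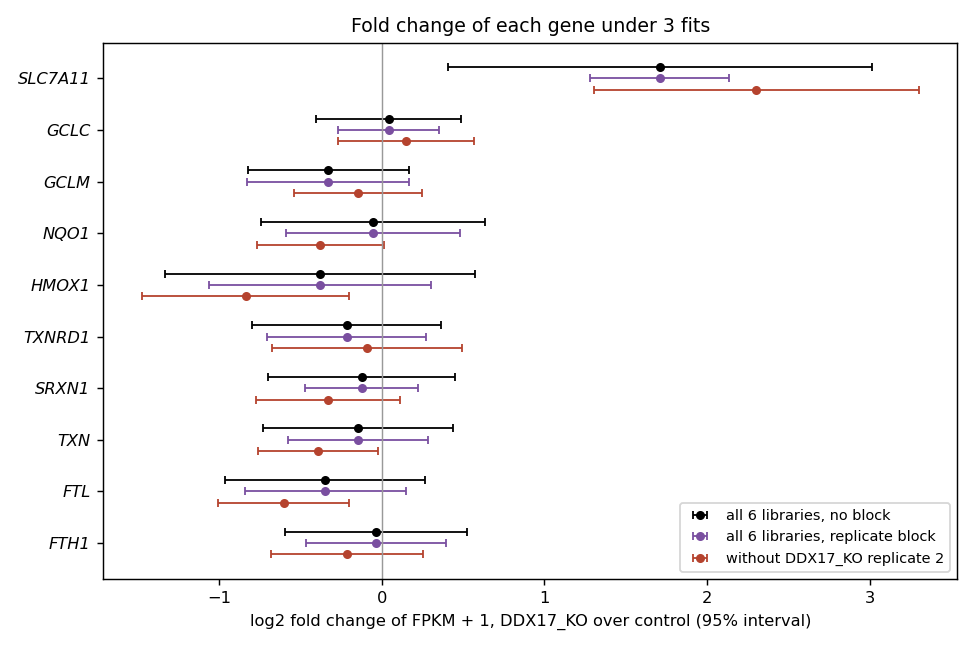
Log2 fold change of FPKM + 1, DDX17_KO over control, with its 95% interval for each of the 10 genes, fitted on all 6 libraries without a block (black), with the replicate number as a block (purple) and without DDX17_KO replicate 2 (red). The intervals of SLC7A11 lie above 0 in all 3 fits, and in both fits on all 6 libraries every other gene's interval spans 0. Without DDX17_KO replicate 2 the intervals of TXN, HMOX1 and FTL lie below 0. In that fit 4 of the 10 genes had an unadjusted limma p under 0.05, as did 5586 of all 15620 genes tested.

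The 10 genes differed widely in level. In order of mean FPKM over the 6 libraries they were FTL at 924, TXN at 238, FTH1 at 211, SRXN1 at 60.3, NQO1 at 45.2, TXNRD1 at 39.1, SLC7A11 at 19.4, GCLC at 4.96, GCLM at 3.44 and HMOX1 at 3.42. SLC7A11 was the 7th in either group, between TXNRD1 and GCLC. In DDX17_KO its libraries overlapped those of TXNRD1 above it and lay apart from those of GCLC below it, while in control they lay apart from TXNRD1 and overlapped GCLC. TXN and FTH1, NQO1 and TXNRD1, and GCLM and HMOX1 overlapped as neighbours in either group.

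The libraries numbered 2 deviated the same way in both lines in 9 of the 10 genes, GCLM being the exception. In 5 genes, NQO1, HMOX1, SRXN1, TXN and FTL, the library numbered 2 was the highest of its group in both lines. SLC7A11 deviated most and in the other direction, with DDX17_KO replicate 2 at -1.78 and control replicate 2 at -1.30 log2 units from the mean of the other 2 libraries of its group. The deviation of HMOX1 was 1.37 in DDX17_KO and 0.29 in control, that of NQO1 0.97 in DDX17_KO and 0.18 in control. SLC7A11 had the lowest GC content of the 10, at 35.9% over its annotated transcripts, and HMOX1 the highest, at 60.2%. TXN did not follow that order, with a GC content of 38.4% and deviations of 0.73 in DDX17_KO and 0.27 in control. With GC content and length corrected for, 0 of the 10 genes were called. The corrected fold change was -0.57 for GCLM, -0.43 for TXN, -0.31 for TXNRD1, -0.11 for FTL, -0.10 for HMOX1 and -0.07 for NQO1. The sign turned in GCLC, to -0.11, in SRXN1, to 0.04, and in FTH1, to 0.15.

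**Figure D4:**
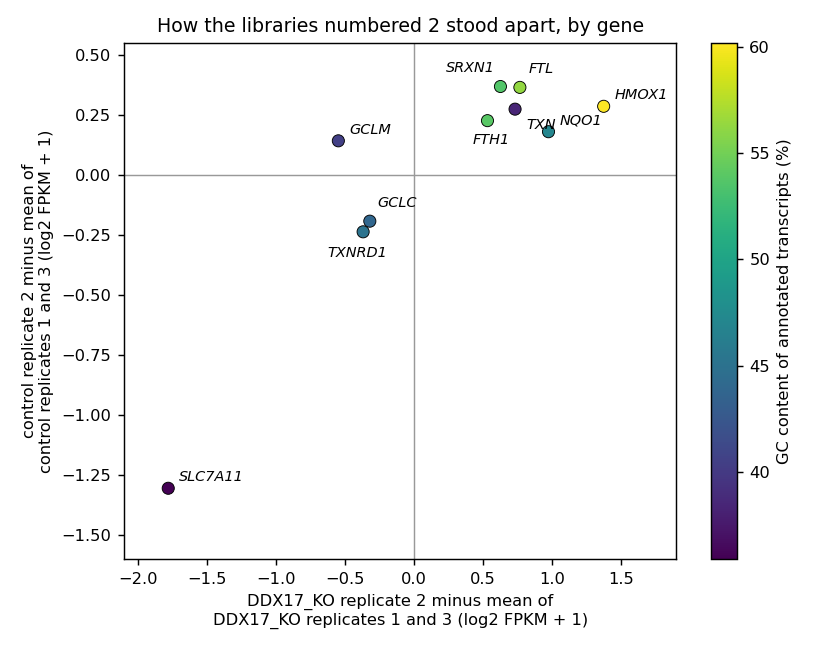
Deviation of DDX17_KO replicate 2 (horizontal) and of control replicate 2 (vertical) from the mean of replicates 1 and 3 of the same group, in log2 units of FPKM + 1, for each of the 10 genes, coloured by GC content in percent. SLC7A11 lies far to the lower left at -1.78 and -1.30, while 6 genes lie to the upper right.

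The regulators of the program did not pass the threshold. NFE2L2 had 4.67, 2.77 and 10.2 FPKM in replicates 1, 2 and 3 of DDX17_KO, against 3.23, 4.36 and 6.19 FPKM in control replicates 1, 2 and 3. Its libraries interleaved, with the highest and the lowest of all 6 in DDX17_KO, and the fold change was 0.18 with a 95% interval from -0.74 to 1.11 (limma adjusted p 0.824). It was 0.54 without DDX17_KO replicate 2 and 0.02 with GC content and length corrected for. KEAP1 had 4.35, 9.71 and 4.43 FPKM in DDX17_KO and 6.65, 6.58 and 7.16 FPKM in control, in the same order. DDX17_KO replicate 2 was above every control library and the other 2 knockout libraries below, the split seen in NQO1 and TXN, and the fold change was -0.20 (limma adjusted p 0.722). Without both libraries numbered 2, KEAP1 was called lower at -0.55 (limma adjusted p 0.0486), among 8.81% of all genes called there. With GC content and length corrected for, the sign of KEAP1 turned, to 0.10 (limma adjusted p 0.843).

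BACH1, the repressor at the same elements, had 6.68, 5.08 and 8.20 FPKM in replicates 1, 2 and 3 of DDX17_KO, against 5.75, 3.39 and 5.46 FPKM in control replicates 1, 2 and 3. DDX17_KO was above control in each same-numbered pair, by 1.16 times or more, and the fold change was 0.39 with a 95% interval from -0.18 to 0.96 (limma adjusted p 0.451). ATF4, the amino acid stress factor that also acts on the SLC7A11 promoter, had 72.8, 122 and 74.6 FPKM in DDX17_KO and 99.8, 127 and 106 FPKM in control, in the same order. DDX17_KO was thus below control in each pair, opposite to SLC7A11, and the fold change was -0.34 with a 95% interval from -0.92 to 0.24 (limma adjusted p 0.505). With weighted libraries ATF4 was called lower, at -0.48 (limma adjusted p 0.0352), and with GC content and length corrected for it was -0.12 and BACH1 0.13. RNA levels do not measure the amount or the activity of the NRF2 and ATF4 proteins, which are set largely after transcription.

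**Figure D5:**
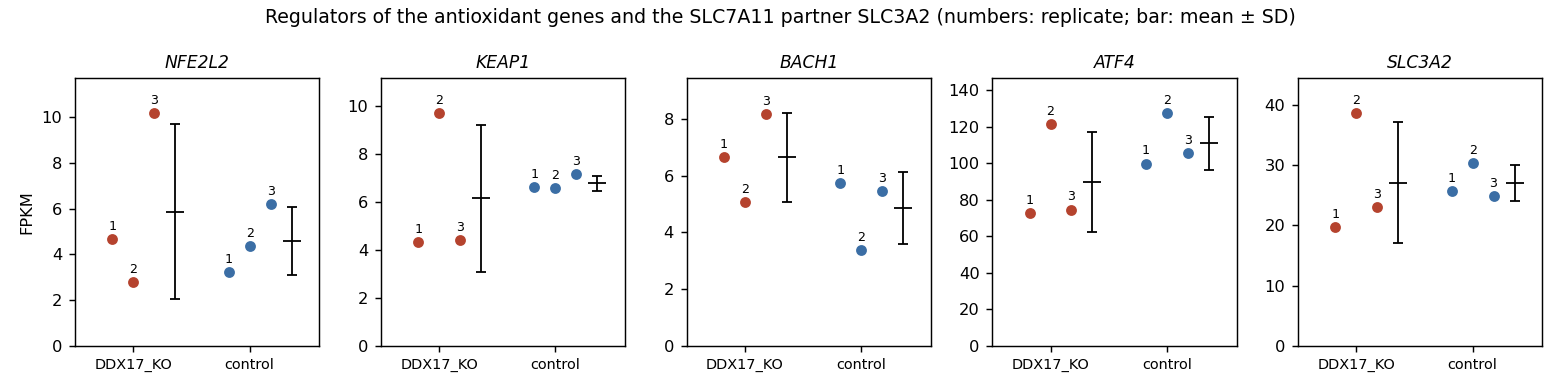
FPKM of NFE2L2, KEAP1, BACH1, ATF4 and SLC3A2 in the 3 DDX17_KO libraries (red) and the 3 control libraries (blue), numbered by replicate, with the group mean and SD; each panel has its own axis from 0. The groups overlap in all 5 genes, and DDX17_KO replicate 2 stands far above replicates 1 and 3 in KEAP1, ATF4 and SLC3A2.

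The 7 lists of related genes, with 177 genes in all and 150 tested, held 0 members called in either direction by limma. At an unadjusted p under 0.05 there were 18, again against 13.5% of all genes tested. Of the 10 genes, the glutathione list includes SLC7A11, GCLC and GCLM, and the thioredoxin list TXN, TXNRD1 and SRXN1. FTL, FTH1 and HMOX1 are in the iron list, and SLC7A11 is also in the ferroptosis and ATF4 lists. Without overlap between the groups were 5 of 28 genes for glutathione, 5 of 28 for other NRF2 targets and 4 of 23 for thioredoxin. The count was 6 of 25 for iron, 3 of 21 for ferroptosis, 2 of 19 for NRF2 regulators and 1 of 19 for ATF4. Over all genes tested it was 20.7%. In the list of cystine import and glutathione synthesis and use, 21 of 28 tested genes had a fold change below 0, with a median of -0.18. Over all genes tested these were 52.5% and -0.03, and the median over genes that averaged 2 FPKM or more was -0.09. Without DDX17_KO replicate 2 the median was -0.38, beside -0.05 over all genes tested. For every list, that setting kept control replicate 2, where GC-rich transcripts were high too. No list median was taken with GC content corrected for. GSTP1, a glutathione transferase and its most abundant member, averaged 44.1 ± 10.6 FPKM in DDX17_KO and 69.7 ± 12.3 FPKM in control (SD, n = 3 each), without overlap (limma adjusted p 0.366). ABCC2, which exports glutathione conjugates from the hepatocyte into bile, had 35.2, 26.7 and 41.3 FPKM in DDX17_KO, against 22.4, 13.9 and 22.6 FPKM in control, without overlap and with a fold change of 0.79 (limma adjusted p 0.352). SLC1A5, a glutamine carrier and also abundant, averaged 43.2 ± 14.2 FPKM in DDX17_KO and 58.9 ± 18.8 FPKM in control (SD, n = 3 each), with overlap (limma adjusted p 0.501).

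Other NRF2 targets did not move one way. Of 28 tested, 10 had a fold change above 0 and 18 below, beside 52.5% below 0 over all genes tested. The median was -0.22, beside -0.03 over all genes tested. It was -0.35 without DDX17_KO replicate 2, beside -0.05. AKR1C1 and AKR1C2, aldo-keto reductases that are near-identical copies and whose fragments may be divided wrongly between them, had every DDX17_KO library above every control library. AKR1C1 had 6.77, 4.21 and 14.7 FPKM in DDX17_KO, against 2.61, 3.06 and 2.60 FPKM in control, with a fold change of 1.20 (limma adjusted p 0.34). Without DDX17_KO replicate 2, AKR1C1 was called higher, at 1.56 (limma adjusted p 0.0487), among 3.66% of all genes called there. It was not called without both libraries numbered 2, at 1.61 (limma adjusted p 0.0648). With GC content and length corrected for it was 1.02 (limma adjusted p 0.255). BLVRB, the biliverdin reductase that acts after haem oxygenase, averaged 10.6 ± 1.28 FPKM in DDX17_KO and 18.2 ± 4.27 FPKM in control (SD, n = 3 each), also without overlap (limma adjusted p 0.34). The most abundant of these targets were PGD of the pentose phosphate pathway and AKR1B1, with fold changes of 0.05 and 0.04.

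Among the thioredoxin, peroxiredoxin and superoxide enzymes, 20 of 23 tested genes had a fold change below 0, against 52.5% of all genes tested. Their median was -0.21, beside -0.03 over all genes tested and -0.09 over those that averaged 2 FPKM or more. It was -0.36 without DDX17_KO replicate 2, beside -0.05 over all genes tested. PRDX1, the most abundant peroxiredoxin, had 123, 328 and 223 FPKM in replicates 1, 2 and 3 of DDX17_KO, against 275, 336 and 266 FPKM in control (limma adjusted p 0.5). TXNRD3 was below every control library in each DDX17_KO library, at 1.43 ± 0.43 FPKM in DDX17_KO and 3.09 ± 0.13 FPKM in control (SD, n = 3 each; limma adjusted p 0.279). TXNIP, the inhibitor of thioredoxin, lay the other way, with 15.2, 9.11 and 6.01 FPKM in DDX17_KO and 4.51, 5.17 and 4.15 FPKM in control, a fold change of 0.91 (limma adjusted p 0.354).

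In the iron storage, transport and haem list, 22 of 25 tested genes had a fold change below 0, against 52.5% of all genes tested. Their median was -0.26, beside -0.03 over all genes tested and -0.09 over those that averaged 2 FPKM or more. It was -0.36 without DDX17_KO replicate 2, beside -0.05 over all genes tested. TFRC, the receptor that takes up iron-laden transferrin, was a member above 0, with 68.7, 38.2 and 67.4 FPKM in replicates 1, 2 and 3 of DDX17_KO, against 43.5, 17.6 and 33.6 FPKM in control replicates 1, 2 and 3. Like SLC7A11 it was higher in each same-numbered pair and lowest in both libraries numbered 2, and its fold change was 0.90 (limma adjusted p 0.369). UROS, an enzyme of haem synthesis, was called lower without DDX17_KO replicate 2, at -0.87 (limma adjusted p 0.0483), among 3.66% of all genes called there.

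Of the ferroptosis genes, 13 of 21 tested had a fold change below 0, against 52.5% of all genes tested. Their median was -0.05, which was -0.20 without DDX17_KO replicate 2. PTGS2, the prostaglandin synthase often used as a mark of ferroptosis, had 9.03, 4.98 and 9.79 FPKM in DDX17_KO, against 4.53, 3.10 and 4.69 FPKM in control, without overlap (limma adjusted p 0.358). Without DDX17_KO replicate 2 it was called higher, at 1.04 (limma adjusted p 0.0469), among 3.66% of all genes called there. NCOA4, which carries ferritin to the lysosome, was among the most abundant members, with a fold change of -0.08. Of NRF2 and its regulators, 10 of 19 tested lay below 0, near the share of all genes tested. Their median was -0.04, which was -0.07 without DDX17_KO replicate 2. MAFF, a small MAF partner of NRF2, was below every control library in each DDX17_KO library, at 1.07 ± 0.45 FPKM in DDX17_KO and 2.43 ± 0.49 FPKM in control (SD, n = 3 each; limma adjusted p 0.318). DPP3, which competes with NRF2 for KEAP1, was without overlap as well, with a fold change of -0.53 (limma adjusted p 0.366). The most abundant were SQSTM1, which draws KEAP1 to autophagy, and the kinase gene GSK3B, with fold changes of -0.29 and 0.30.

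Of the ATF4 arm that SLC7A11 shares, 12 of 19 tested genes lay below 0, against 52.5% of all genes tested. Their median was -0.09, which was -0.28 without DDX17_KO replicate 2. SLC7A5, a carrier of large neutral amino acids and the most abundant, had a fold change of -0.13, and CEBPB, a transcription factor gene without overlap between the groups, had -0.65 (limma adjusted p 0.366). Without DDX17_KO replicate 2, SLC7A11 was called higher while ATF3 and PPP1R15A were called lower, at -2.21 and -1.53 (limma adjusted p 0.0284 and 0.0309). That setting called 3.66% of all genes tested. ATF3 had 0.737, 8.95 and 0.715 FPKM in replicates 1, 2 and 3 of DDX17_KO, against 4.39, 9.13 and 8.23 FPKM in control replicates 1, 2 and 3, so DDX17_KO replicate 2 was at the control level and the other 2 far below it.

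The course of SLC7A11 over the 6 libraries was shared by many genes. Among 5799 other genes that averaged 5 FPKM or more, 434 had a Pearson's r above 0.95 with it in log2(FPKM + 1), a likeness that rests on 6 libraries and on the same low values in both libraries numbered 2. The 5 most alike were UPF2, AC113404.3, DHX36, LTV1 and USP24, with r between 0.996 and 0.999. UPF2 had 13.5, 5.404 and 15.02 FPKM in replicates 1, 2 and 3 of DDX17_KO, against 6.14, 2.64 and 5.08 FPKM in control replicates 1, 2 and 3. The GC content of these 5 lay between 38.2% and 43.4%. In the 6 other antioxidant genes with a mean above 5 FPKM, r ran from 0.09 for TXNRD1 to -0.94 for FTL.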

How the data were processed

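The authors deposited 1 table that was read here as FPKM per gene and library; its header names no unit, and the reading rests on the steps of the values with transcript length. Per the submitters' processing notes, CASAVA 1.8, HISAT2, StringTie and edgeR were used with hg38, each in a role that is not stated. What annotation, strand setting and filters were used is not given in the sources used here. Depth came from the values: for genes with 1 transcript in GENCODE release 29, FPKM times length fell on multiples of a step, within 0.05 of a whole number for 99.5% or more of values up to 20 fragments. Depths and floors cover counting error only. Libraries were grouped by their titles.

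Values of log2(FPKM + 1) were tested two-sided with limma 3.58.1 (R 4.3.3), with an intensity trend, over the 15620 genes that averaged 0.5 FPKM or more, and p-values were adjusted by Benjamini-Hochberg over all of these. Fold changes of low genes come out too small on this scale. Python 3.11.15 with pandas 2.3.3 handled the tables. Named were DDX17, the 10 genes, NFE2L2, KEAP1, BACH1, ATF4 and SLC3A2, and from each list up to 2 members called per direction, or else the 2 most abundant and the 2 with the lowest p; genes called without DDX17_KO replicate 2 were named after their values were seen. The members and lists were chosen with earlier results of these data known.

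Whether replicate numbers pair the libraries was checked by the correlation, across genes, of deviations from group means: 0.30, 0.55 and 0.21 for numbers 1, 2 and 3, each over 0.1. The labels state no pairing. Deviations of 3 libraries from their own mean sum to 0, so a shift shared by the libraries numbered 2 can alone make the others correlate. Replicates 1 and 3 also correlated crosswise. DDX17_KO replicate 3 with control replicate 1 was at 0.33, and DDX17_KO replicate 1 with control replicate 3 at 0.19. The check therefore cannot tell whether numbers 1 and 3 are pairs. The block and the same-number ratios take the numbers as given. Alternatives were median-of-ratios scaling, a replicate block, quantile normalization, pseudocounts of 0.1 and 0.01, a filter at 2 FPKM or none, no trend, robust limma, array weights, a correction for GC content and length by splines with 4 degrees of freedom, that correction with the block, each library left out and both libraries numbered 2 left out. When libraries were left out, the 15620 genes were kept.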

Additional observations from a re-analysis of the deposited data

How the results depend on the processing

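SLC7A11 kept its direction in all 19 alternatives, with a log2 fold change from 1.27 to 2.30 when single libraries were left out. It passed the threshold in 3 of them: with array weights at 1.89, without both libraries numbered 2 at 1.87, and without DDX17_KO replicate 2 at 2.30. With the replicate number as a block it stayed at 1.71 with a limma adjusted p of 0.0654, and with the GC and length correction and the block at 1.39 with 0.091; the block changed no call of the 10 genes. The count of the 10 genes called, 0 on all libraries, was 3 with array weights (SLC7A11, HMOX1 and FTL), 1 without both libraries numbered 2, and 0 to 1 with single libraries left out. Over all genes 6 were called on all libraries, 4 with the replicate block, 3 with no filter, 10 with the GC and length correction, 1376 without both libraries numbered 2, 3861 with array weights, and 3 to 572 with single libraries left out, the 572 being without DDX17_KO replicate 2. The median over the 10 genes ran from -0.27 to 0.03 with single libraries left out. At an unadjusted p under 0.05 the block gave 4460 genes, against 2109 without it.

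Directions of genes near 0 turned. GCLC was -0.0373 with array weights and -0.106 with the GC and length correction, with or without the block, and ran from -0.0415 to 0.158 with single libraries left out. SRXN1 was 0.0432 with that correction in both forms and ran from -0.332 to 0.0454. FTH1 was 0.148 with that correction in both forms, 0.0394 with median-of-ratios scaling and 0.113 with quantile normalization, and ran from -0.214 to 0.0714. NQO1 was 0.0211 and 0.0309 with those scalings and ran from -0.378 to 0.175, and HMOX1 ran from -0.836 to 0.0483. The cause was not tested. Median-of-ratios scaling moved the median fold change of all genes to 0.03, from -0.03.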

Other observations

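Rows of processed pseudogenes carried much of the ferritin heavy chain signal. FTH1P2 had 106, 191 and 117 FPKM in replicates 1, 2 and 3 of DDX17_KO, against 70.6, 78.7 and 79.2 FPKM in control replicates 1, 2 and 3. FTH1P20 had 101, 156 and 98.7 FPKM in DDX17_KO and 76.5, 98.4 and 86.0 FPKM in control, in the same order. In both, unlike in the FTH1 row, every DDX17_KO library was above every control library, for FTH1P20 by 98.7 against 98.4 FPKM. Groups without overlap were seen in 20.7% of the genes tested. FTH1P7 and FTH1P8 did not overlap either. FTH1P23 did, with 33.0, 73.1 and 32.6 FPKM in DDX17_KO and 30.4, 42.5 and 32.2 FPKM in control. FTH1 summed with its 25 pseudogene rows came to 551, 916 and 563 FPKM in DDX17_KO, against 437, 572 and 536 FPKM in control, with overlap. These sums were formed after the values were seen and were not tested.

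Within the TXNRD1 locus, on the same strand, the pseudogene row RPL18AP3 held 853, 1368 and 697 FPKM in replicates 1, 2 and 3 of DDX17_KO, against 1081, 1434 and 1156 FPKM in control replicates 1, 2 and 3, levels far above those of TXNRD1 itself.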
